A study of Mus musculus with 3 samples.

Results

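Ifi27l2a, Ifi27, Ifi44, Ifi213 and Rtp4 are 5 genes of the response to type I interferon. They were chosen by their measured levels in these same data, as genes that were much higher after irradiation, so their ratios between libraries are given below as a description and not as a finding that the data tested. They are 5 of the 56980 genes listed in the deposited matrices, and each has at least 100 molecules over the 3 libraries, as have 19109 genes in all. The data are droplet single-cell RNA-seq of bone marrow nucleated cells (BMNCs) of male C57BL/6 mice, taken at day 14 and prepared with a 3′ kit. The Control library came from mice labelled control, the IR library from mice given 6 Gy of gamma irradiation and solvent (soybean oil with DMSO), and the IR+CBD library from mice given 6 Gy and intraperitoneal cannabidiol (CBD) at 50 mg/kg per injection, before and after the irradiation. Each library pooled 3 mice, and sorted fractions of its marrow (Lin−Kit+ to Lin−Kit− to Lin+) were recombined at 5:4:1, so shares of cells refer to this mix and not to marrow. With 1 library a group there was no replicate, no test between groups was made, and the effects of treatment, pool and library preparation cannot be told apart.

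Type I interferons are cytokines that bind a receptor on nearly every nucleated cell and act through the kinases Jak1 and Tyk2 and transcription factors such as Irf9, whose complex binds interferon-stimulated response elements (ISREs) in the promoters of target genes. Bone marrow cells of all lineages respond, and exposure can drive hematopoietic stem cells into cycle. The 5 genes differ in what their products do. Ifi27l2a and Ifi27 encode small hydrophobic proteins of the ISG12 family, which sit in membranes. Ifi44 encodes a cytoplasmic protein that restrains the growth of viruses and of some cells. Ifi213 encodes a member of the PYHIN family, whose best known relatives sense nucleic acid. Rtp4 encodes a receptor transporter protein, which helps receptors to the cell surface and limits RNA viruses.

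In the order of genes along the chromosomes (RefSeq, GRCm38.p6), Ifi27l2a and Ifi27 were direct neighbours, Ifi44 lay between Adgrl4 and Ifi44l, Ifi213 lay between Ifi214 and Ifi209 in the PYHIN cluster, and Rtp4 lay between Masp1 and Sst. RefSeq promoters of GRCm38.p6 were at hand for Ifi44 and Ifi213, 2 of the 5 genes. They are shown because the ISRE is the sequence through which this response is known to be read, and a pair of its GAAA repeats, spaced as in the forms searched, is set in capitals in each. Further copies of GAAA in these sequences are not marked. Each sequence is the 250 bases before the start of transcription, read 5′ to 3′ along the gene's strand, which is the minus strand for both. Ifi213 lies at chr1:173599273-173599522 and Ifi44 at chr3:151749911-151750160.
Ifi213: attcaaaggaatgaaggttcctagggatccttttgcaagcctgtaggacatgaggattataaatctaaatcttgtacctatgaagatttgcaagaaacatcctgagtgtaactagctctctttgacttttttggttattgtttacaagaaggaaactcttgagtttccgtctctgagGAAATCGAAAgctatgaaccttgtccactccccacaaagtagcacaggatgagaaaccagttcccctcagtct
Ifi44: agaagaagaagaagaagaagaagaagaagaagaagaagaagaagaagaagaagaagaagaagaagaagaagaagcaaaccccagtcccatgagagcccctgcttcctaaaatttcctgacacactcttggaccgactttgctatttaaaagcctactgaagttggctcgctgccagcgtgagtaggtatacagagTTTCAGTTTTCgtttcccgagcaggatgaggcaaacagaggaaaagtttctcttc
The Ifi213 promoter held the ISRE core GAAANNGAAA, where N is any base, starting 73 bases before the start of transcription. Searched on both strands, this core stood in 2.98% of 32851 promoters of this length. The Ifi44 promoter held no copy of it, but held the core with 3 bases between the repeats (GAAANNNGAAA) on the opposite strand, 55 bases before the start, a form that was searched only after that promoter had been seen and that stood in 2.38% of all promoters. Among the 45 genes with a promoter in a list of 57 type I response genes, 16 held GAAANNGAAA, beside 3.46% of all 27025 genes with a promoter.

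Levels are given as molecules (unique molecular identifiers, UMIs) of a gene per 1000000 UMIs of the library or group of cells (CPM), with exact Poisson 95% intervals. For a ratio of CPM the 95% interval is the exact one from the binomial given the sum of both counts. Intervals speak only for counting error, not for the spread between mice. The libraries held 199383228 (Control), 206932522 (IR) and 177806843 (IR+CBD) UMIs, of which cells with at least 200 genes and at most 5% mitochondrial UMIs kept between 173466089 and 202361682 in 10273 to 10674 cells, and between 35 and 51 cell barcodes were shared by each pair of libraries.

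In all cells, every one of the 5 genes was highest in the IR library, and 4 of the 5 stood between 0.875 and 1.13 times Control in the IR+CBD library. Ifi27l2a (ENSMUSG00000079017) was at 70.2 CPM in Control, 433 CPM in IR and 68.1 CPM in IR+CBD. Its ratio was 6.18 for IR over Control (6.07 to 6.29) and 0.157 for IR+CBD over IR (0.154 to 0.160). Rtp4 moved nearly as far, from 6.83 CPM in Control to 40.5 CPM in IR, a ratio of 5.93 (5.60 to 6.29), and stood at 7.73 CPM in IR+CBD. The PYHIN gene Ifi213 was rarer in every library, with 308 UMIs in Control against 1604 in IR and 240 in IR+CBD. Those counts are 1.58, 7.93 and 1.38 CPM, and the ratio of IR over Control was 5.01 (4.44 to 5.68).

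Ifi44 and Ifi27 stood apart from the other 3, in opposite ways. Ifi44 was at 2.95 CPM in Control, 11.3 CPM in IR and 1.02 CPM in IR+CBD, so that IR+CBD was 11.05 times lower than IR and 2.89 times lower than Control. Ifi44 was therefore the member with IR+CBD furthest below Control, at a ratio of 0.346 (0.291 to 0.411), where 2.73% of all genes tested were at least 2-fold lower. Over 8 alternatives this Ifi44 ratio ran from 0.205, with each cell thinned to 2000 UMIs, up to 0.472. Ifi27, the gene next to Ifi27l2a, had the smallest difference: 66.8 CPM in Control, 165 CPM in IR and 74.8 CPM in IR+CBD, with ratios of 2.48 (2.43 to 2.53) and 0.452 (0.443 to 0.461). For IR+CBD over Control the ratios were 0.970 for Ifi27l2a (0.946 to 0.994), 1.12 for Ifi27 (1.09 to 1.15), 0.875 for Ifi213 (0.736 to 1.04) and 1.13 for Rtp4 (1.05 to 1.22). The interval of Ifi213 holds 1. Ifi27l2a lay on the other side of 1 under 3 alternatives: its ratio was 1.15 with the cell mix of Control given to all libraries, 1.22 with each cell weighted equally and 1.16 with thinned cells, while Rtp4 went to 0.973 with thinned cells. The cell mix itself differed, with Klf1+ cells at 5.49% of kept cells in Control but 14.0% in IR and 11.5% in IR+CBD. Cd34+Adgrl4+ cells (gates are defined below) went the other way, at 29.2%, 18.9% and 19.2%. That gate alone held 39.7% of the Ifi44 UMIs of Control.

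Read against all genes, 5 of 5 members were at least 2-fold higher in IR than in Control, where 1.89% of the 19109 tested genes were, and 5 of 5 were at least 2-fold lower in IR+CBD than in IR, where 0.743% were. Since the choice of members used these contrasts, nothing is read from either count. No member was at least 2-fold higher in IR+CBD than in Control, where 1.42% of genes were. The members' median log2 ratio was 2.32 for IR over Control, −2.52 for IR+CBD over IR and −0.044 for IR+CBD over Control, beside medians over all genes of −0.055, 0.0027 and −0.046. By size of the IR over Control ratio, Ifi27l2a was number 25 of the 19109 genes, Rtp4 number 27, Ifi213 number 41, Ifi44 number 64 and Ifi27 number 208. By the drop from IR to IR+CBD, Ifi44 came first of the 5 at number 8, followed by Ifi27l2a at 13, Ifi213 at 16, Rtp4 at 18 and Ifi27 at 110.

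The cells were then divided by raw UMIs of single genes: at least 5 Mpo UMIs (a granule enzyme of granulocyte and monocyte progenitors), 2 of Klf1 (an erythroid transcription factor), 2 of Cd79a (part of the B cell receptor), 5 of Retnlg (a gene of maturing neutrophils), 3 of Siglech (a receptor of plasmacytoid dendritic cells), or at least 1 each of Cd34 and Adgrl4 (surface proteins of stem and progenitor cells). Other markers were checked in each gate. Elane was at 3056 to 4318 CPM in Mpo+ cells, Gata1 at 105 to 109 CPM in Klf1+ cells, Ebf1 at 4223 to 4515 CPM in Cd79a+ cells, and S100a8 at 103630 to 113346 CPM in Retnlg+ cells. RNA of other lineages was present too. In Cd79a+ cells the 8 B cell genes summed to 10282, 9196 and 9778 CPM (Control, IR and IR+CBD), and the 8 neutrophil genes to 10204, 9076 and 13027 CPM. The 9 erythroid genes were lowest in Control, as was the Klf1+ share, at 454, 1195 and 955 CPM in Cd79a+ cells and at 482, 1995 and 1690 CPM in Retnlg+ cells. The part of this RNA in the members' levels was not tested. A cell could pass several gates: 2253 of 3116 Cd34+Adgrl4+ cells of Control and 1741 of 1952 of IR also passed another. The Cd34+Adgrl4+ cells had Mpo at 2812 CPM in Control and 3395 CPM in IR. Of 6 endothelial genes, which summed to 122 to 127 CPM in this gate, Cdh5 was at most at 0.158 CPM, and Pecam1, which blood cells also express, made up 116 to 119 CPM. The stem cell gene Hlf was at 49.3 CPM in Control, 21.5 CPM in IR and 27.7 CPM in IR+CBD, and the part of the mix of cells inside this gate in its values was not tested. The Siglech+ gate held 273 cells in Control but 46 in IR and 79 in IR+CBD, and its values are the least precise.

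**Figure D1:**
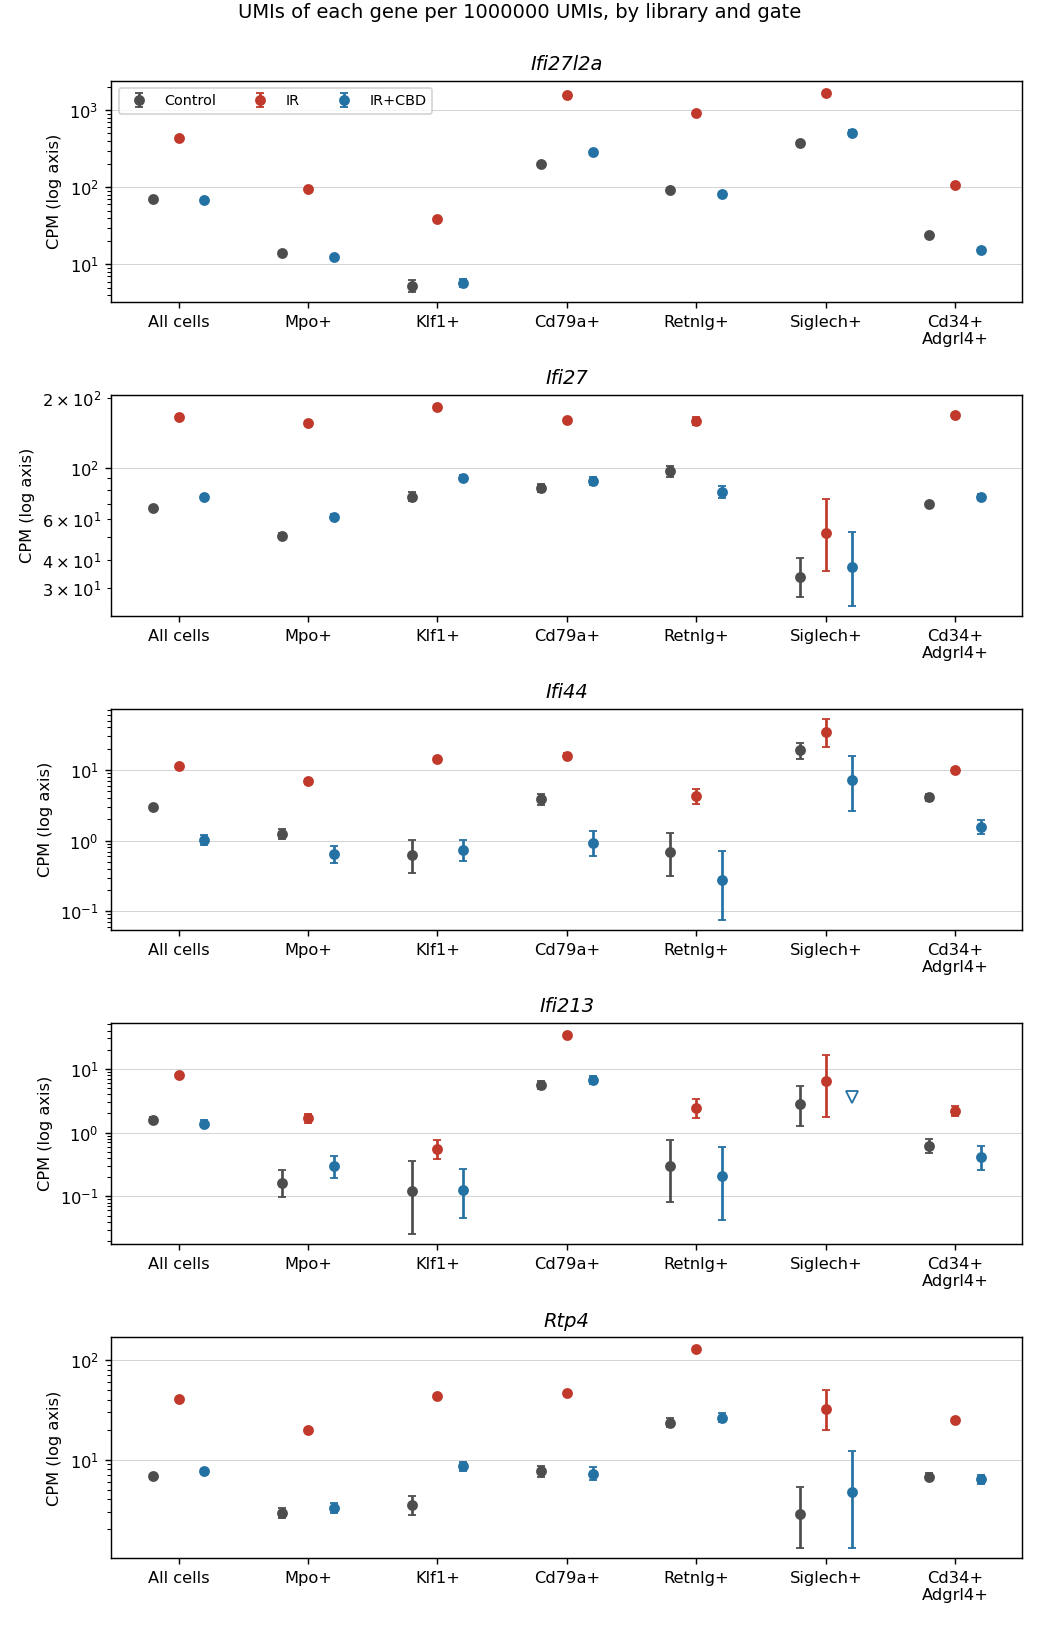
Level of each of the 5 genes (rows; CPM on a log axis, with a scale of its own for each gene) in all cells and in the 6 gates, for Control (grey), IR (red) and IR+CBD (blue). Points are summed UMIs of 1 library and bars exact Poisson 95% intervals; the open triangle marks 0 UMIs and stands at the level of 3 UMIs. The IR point is the highest of each trio of points, and only among Siglech+ cells do its bars overlap those of Control, for Ifi27, Ifi44 and Ifi213.

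Ifi27l2a was uneven across lineages. In Cd79a+ cells it was at 202 CPM in Control, 1570 CPM in IR and 286 CPM in IR+CBD. In Retnlg+ cells the values were 91.7, 921 and 82.6 CPM, and in Siglech+ cells 372, 1664 and 509 CPM. In the Siglech+ cells the 8 neutrophil genes moved alongside, at 5634, 20258 and 5931 CPM, as did 6 monocyte genes at 1072, 2054 and 1361 CPM, while the 8 plasmacytoid genes were at 9788, 9439 and 11811 CPM; the part of this RNA in the Siglech+ values was not tested. These lymphoid, neutrophil and plasmacytoid gates were thus high in every library, including Control. In Mpo+ cells Ifi27l2a was at 14.0, 95.4 and 12.4 CPM, in Cd34+Adgrl4+ cells at 23.9, 108 and 15.5 CPM, and in Klf1+ cells at only 5.25, 38.6 and 5.76 CPM. The IR level in Mpo+ cells was still below the Control level in Cd79a+ cells. Across the 6 gates the ratios of IR over Control varied much less than the levels, from 4.47 (4.11 to 4.87) in Siglech+ cells to 10.0 (9.46 to 10.7) in Retnlg+ cells. A larger ratio, from few UMIs, was seen in the cells with Ncr1 that are added below.

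Most of the Ifi27l2a molecules therefore came from few of the UMIs. In IR, cells that passed the Cd79a gate alone held 10.8% of all UMIs of the library and 58.2% of its Ifi27l2a UMIs. Cells that passed the Klf1 gate alone held 24.4% of all UMIs and 0.686% of those of Ifi27l2a. Ifi213 was divided in a similar way, with 70.6% of its IR UMIs in the Cd79a gate alone and 0.561% in the Klf1 gate alone. Rtp4 and Ifi44 were not: the Klf1 gate alone held 26.8% of the Rtp4 UMIs and 33.6% of the Ifi44 UMIs of IR, and the Cd79a gate alone 13.7% and 18.02%. In Control the Klf1 gate alone held only 5.41% of the Rtp4 UMIs and 1.39% of the Ifi44 UMIs. There the Cd34+Adgrl4+ gate alone held 22.8% and 39.7%. In IR+CBD the Ifi44 shares of these 2 gates were 14.1% (Klf1) and 19.2% (Cd34+Adgrl4+).

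Rtp4 had its highest level in Retnlg+ cells, at 23.6 CPM in Control, 128 CPM in IR and 26.4 CPM in IR+CBD. Its largest ratio was in erythroid cells, where Control was low: Klf1+ cells had 3.49 CPM in Control, 43.8 CPM in IR and 8.60 CPM in IR+CBD, a ratio of 12.6 for IR over Control (10.1 to 15.8). This was also the gate in which IR+CBD stayed furthest above Control, at a ratio of 2.47 (1.95 to 3.15). In the other 5 gates the interval of that Rtp4 ratio held 1, from 0.943 (0.775 to 1.15) in Cd79a+ cells upward.

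Ifi44 was like Rtp4 in erythroid cells for IR over Control only. For IR+CBD over Control its ratio there was 1.18, within counting error, against 2.47 for Rtp4. Klf1+ cells had 15 Ifi44 UMIs in Control against 911 in IR and 35 in IR+CBD, or 0.616, 14.4 and 0.727 CPM, and the ratio of 23.3 for IR over Control (14.1 to 41.9) was the largest of any member in these 6 gates. In the cells that passed the Klf1 gate alone it was 35.9 (18.1 to 83.4). In Cd79a+ cells Ifi44 was at 3.83, 15.8 and 0.930 CPM, so IR+CBD was 4.11 times lower than Control there. Cd34+Adgrl4+ cells had 4.08, 9.81 and 1.56 CPM of it, from 387, 659 and 87 UMIs. Siglech+ cells had the highest Ifi44 level of Control, 18.9 CPM (60 UMIs), with 34.1 CPM in IR (21 UMIs) and 7.15 CPM in IR+CBD (6 UMIs). The ratio of IR+CBD over Control was below 1 beyond counting error in 4 of the 6 gates and above it in 0.

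Ifi213 was measured well only in Cd79a+ cells, at 5.63 CPM in Control, 34.2 CPM in IR and 6.75 CPM in IR+CBD, with ratios of 6.07 (5.18 to 7.15) and 0.197 (0.167 to 0.231). In Mpo+ cells it had 18, 159 and 25 UMIs, a ratio of 10.4 for IR over Control with a wide interval (6.37 to 17.99). In Klf1+, Retnlg+ and Siglech+ cells it had at most 36 UMIs in a library, and in Siglech+ cells of IR+CBD it had 0, which allows up to 4.40 CPM.

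Ifi27 was the least uneven across the 6 gates. In IR it lay between 157 and 184 CPM in the Mpo+, Klf1+, Cd79a+, Retnlg+ and Cd34+Adgrl4+ cells, and at 52.0 CPM (32 UMIs) in Siglech+ cells. Control levels in the same 5 gates ran from 50.7 CPM in Mpo+ cells to 96.5 CPM in Retnlg+ cells. Among these gates the ratio of IR over Control was largest in Mpo+ cells, at 3.10 (3.01 to 3.20), and only 1.65 (1.54 to 1.77) in Retnlg+ cells. Both neighbours, Ifi27 and Ifi27l2a, were higher in IR than in Control in the 6 gates, but Ifi27 in Siglech+ cells went to 0.899 in cells of that gate alone and to 0.725 without predicted doublets. For IR+CBD over Control they lay on opposite sides of 1 in Mpo+ cells, at 1.21 for Ifi27 and 0.885 for Ifi27l2a, and in Cd34+Adgrl4+ cells, at 1.08 and 0.649. In cells of the Cd34+Adgrl4+ gate alone, Ifi27 went to 0.869, below 1 like Ifi27l2a.

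**Figure D2:**
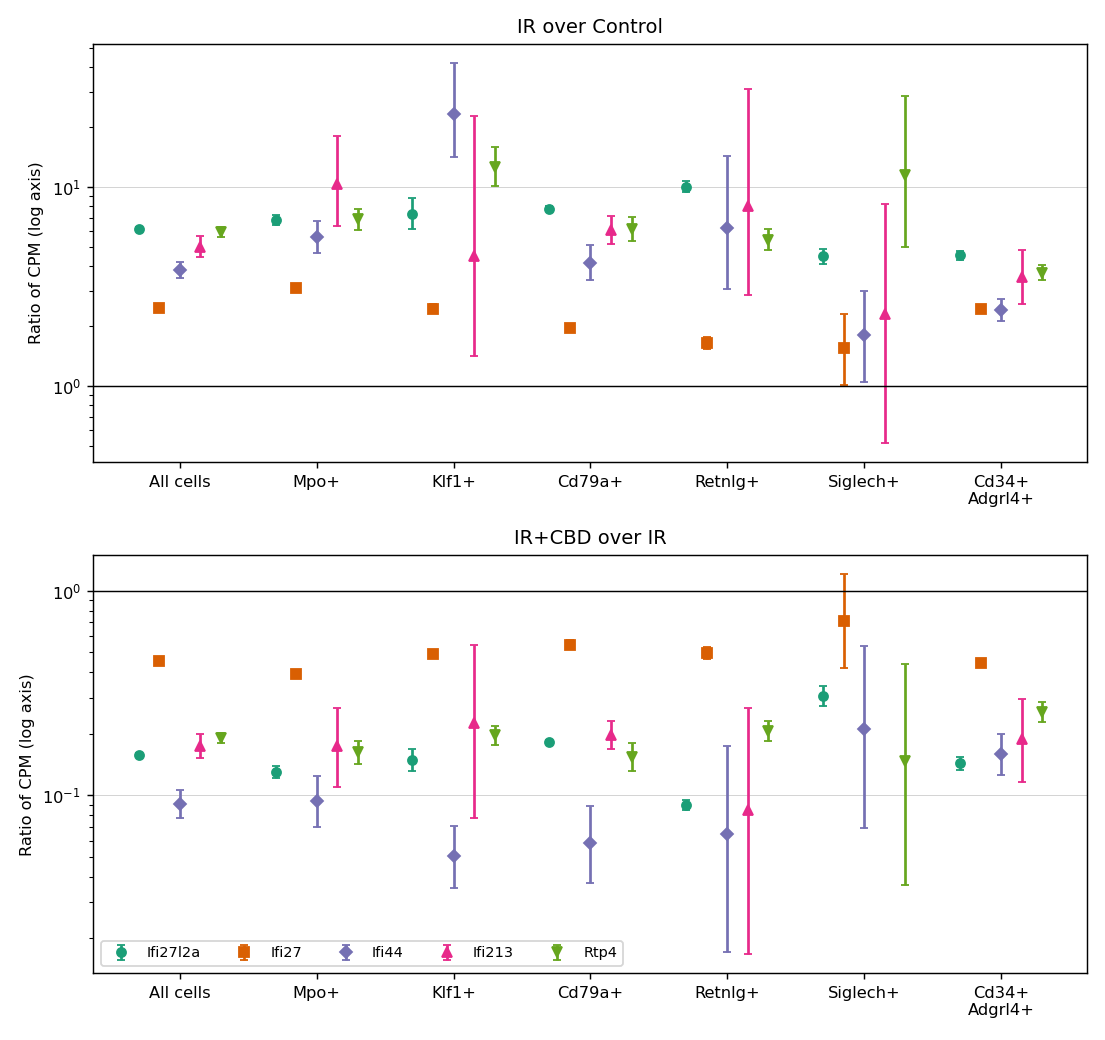
Ratio of CPM for IR over Control (top) and IR+CBD over IR (bottom) on log axes, for the 5 genes in all cells and in the 6 gates. Bars are exact 95% counting intervals and the line marks a ratio of 1; a ratio with a count of 0 in the upper library is not drawn. Ifi27 lies closest to 1 in most gates, and the Ifi44 ratio of 23.3 in Klf1+ cells is the largest.

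Gate by gate, the share of members past 2-fold stood beside a small share of all genes. In Mpo+ cells 5 of 5 members were at least 2-fold higher in IR than in Control, beside 1.04% of genes, and 5 of 5 at least 2-fold lower in IR+CBD than in IR, beside 0.566%. In Klf1+ cells it was 4 of 4 members with at least 100 UMIs for both, beside 1.35% and 0.778%. In Cd79a+ cells it was 4 of 5 for both, beside 2.28% and 0.851%, and the exception was Ifi27 with ratios of 1.97 (1.88 to 2.06) and 0.544 (0.518 to 0.572). In Retnlg+ cells 2 of 3 were higher in IR, beside 2.08%, and 3 of 3 lower in IR+CBD, beside 0.694%. Siglech+ cells had 1 of 2 for both, beside 1.08% and 1.61%, with Ifi27 again the other one. In Cd34+Adgrl4+ cells 5 of 5 were past 2-fold for both, beside 0.855% and 0.621%. The members were chosen from the same cells, so these counts describe where the difference was seen and are no test of it.

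The higher Ifi27l2a level of IR was seen both in more cells and in more molecules per cell. To set depth aside, each cell was thinned to 2000 UMIs and shallower cells were left out. Of all cells so thinned, 15.7% had an Ifi27l2a UMI in Control, as had 44.9% in IR and 16.2% in IR+CBD (30.7%, 65.9% and 27.0% unthinned). Cells with at least 1 UMI held on average 2.26, 5.78 and 2.55 of them. Among thinned Cd79a+ cells the share was 28.9% in Control (27.4 to 30.5, exact binomial), 81.6% in IR (80.4 to 82.8) and 37.3% in IR+CBD (35.6 to 39.0), so that most of these cells were positive in IR. Over all Cd79a+ cells, without thinning, the median Ifi27l2a level was 0 CPM in Control, 1770 CPM in IR and 58.2 CPM in IR+CBD.

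Rtp4 and Ifi27 showed other patterns. Among thinned Retnlg+ cells, 4.91% had an Rtp4 UMI in Control, as had 28.6% in IR and 6.93% in IR+CBD, while the mean per positive cell stayed between 1.23 and 1.31 UMIs. Ifi27 was found in 13.8%, 25.02% and 14.6% of all thinned cells, with 1.19, 1.27 and 1.14 UMIs per positive cell. For both genes the share of cells moved and the molecules per positive cell hardly did, which at 2000 UMIs per cell is near the smallest count that can be seen. Ifi44 and Ifi213 were found in at most 4.498% of all thinned cells in any library, in IR for Ifi213.

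**Figure D3:**
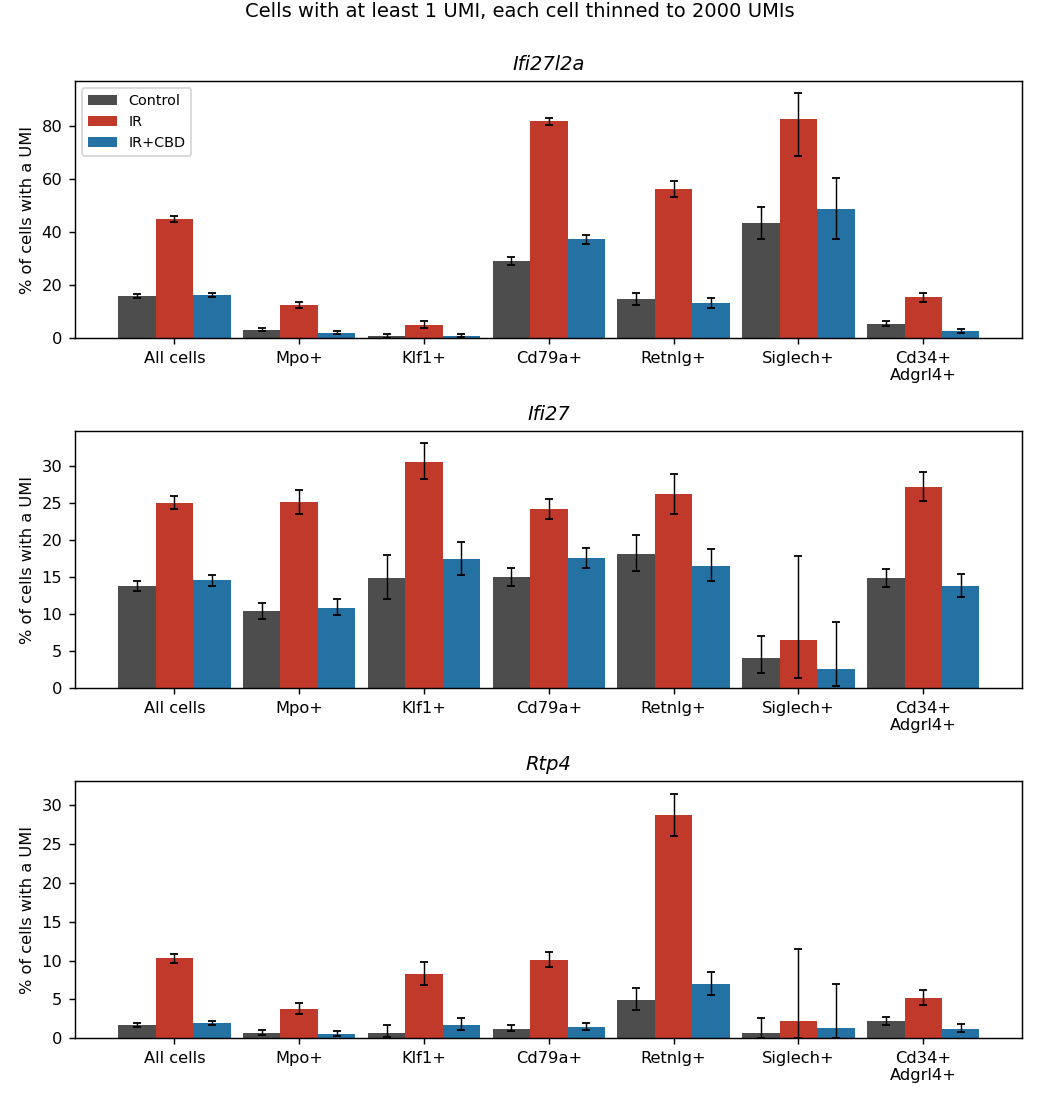
Percent of cells with at least 1 UMI of Ifi27l2a, Ifi27 or Rtp4 after each cell was thinned to 2000 UMIs, by gate and library (Control grey, IR red, IR+CBD blue), with exact binomial 95% intervals. The Ifi27l2a bar of IR reaches 81.6% in Cd79a+ cells and 5.05% in Klf1+ cells.

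RNA that leaks from broken cells can give UMIs in droplets of cells that do not express a gene, and no cell type of the marrow is known to lack these genes, so no background share could be set. The Klf1+ gate gives the lowest share: 5.05% of its thinned IR cells had an Ifi27l2a UMI. The part of free RNA in the low levels of single gates was not tested. The proportion of 2 members to each other differed between gates. In IR there were 33.4 Ifi27l2a UMIs for each Rtp4 UMI in Cd79a+ cells, 7.20 in Retnlg+ cells, 4.30 in Cd34+Adgrl4+ cells and 0.881 in Klf1+ cells. In IR, Rtp4 was found in 34.6% of the thinned Retnlg+ cells with an Ifi27l2a UMI and in 20.9% of those without, and in 11.05% and 5.83% of such Cd79a+ cells. The shares were close in Mpo+ cells, at 3.88% and 3.76%. In Klf1+ cells they were 6.85% and 8.31%, but only 73 thinned cells had an Ifi27l2a UMI there, so no direction is read from them.

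The Cd79a gate was divided further after its values had been seen, by the pre-B genes Vpreb1 and Igll1 and by Ighd, which mature B cells express. Cells with UMIs of both kinds, or of neither, were left out of this split. Early cells, with a Vpreb1 or Igll1 UMI and none of Ighd, had Ifi27l2a at 168 CPM in Control, 1191 CPM in IR and 124 CPM in IR+CBD. Cells with Ighd, and without Vpreb1 and Igll1, had 272, 2064 and 438 CPM. The ratio of IR over Control was 7.09 (6.78 to 7.43) in the first and 7.59 (7.08 to 8.15) in the second, but IR+CBD stood at 0.739 of Control (0.683 to 0.798) in the first and at 1.61 (1.48 to 1.76) in the second. Ifi213 had a smaller ratio of IR over Control in cells with Ighd, at 3.62 (2.60 to 5.14), than in the whole gate, and Ifi44 a larger one, at 8.51 from 5 UMIs in Control. The early cells numbered 939 in Control against 1022 in IR and 538 in IR+CBD, and the part of this mix in the Cd79a+ values was not tested.

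Gates on genes of monocytes, basophils, megakaryocytes, T cells and NK cells were added to those of the rule. Cells with at least 2 UMIs each of Csf1r and Ccr2, receptors of monocytes, had Ifi27l2a at 66.3, 322 and 79.9 CPM and Ifi44 at 0.651, 8.28 and 0.516 CPM. Ifi27 was at 24.2, 84.3 and 34.0 CPM in them, below its levels in the Mpo+, Klf1+, Cd79a+, Retnlg+ and Cd34+Adgrl4+ cells. Cells with at least 2 UMIs of Mcpt8, a basophil protease, had Rtp4 at 3.10, 32.4 and 4.92 CPM. Among the 50 to 109 cells of a library with the T cell gene Cd3e, Ifi27l2a was at 117 CPM in Control, 1184 CPM in IR and 222 CPM in IR+CBD. In 34 to 105 cells with an Ncr1 UMI it was at 13.4, 317 and 84.6 CPM, from 19, 153 and 50 UMIs, and there IR+CBD was at 6.32 times Control (3.66 to 11.4). This gate differed in make-up between libraries: its 5 NK cell genes summed to 2381, 7668 and 5121 CPM and its 6 genes of Mpo+ cells to 4477, 1743 and 6662 CPM, and their part in these values was not tested. Ifi44 was not higher in IR than in Control in 3 of the added gates, where it was scarce. Cells with at least 5 UMIs of the megakaryocyte gene Pf4 had 16 Ifi44 UMIs in Control and 7 in IR (5.56 and 5.11 CPM), those with Cd3e 4 and 2 (4.15 and 3.86 CPM), and those with Ncr1 4 and 0.

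The nearest relatives of the members were silent or nearly so, except in the PYHIN family. Over the 3 libraries together, Ifi27l2b had 4 UMIs, Ifi44l 2, Rtp1 0, Rtp2 2 and Rtp3 21. Rtp4 was thus the only receptor transporter gene with at least 100 UMIs, and Ifi44 the only one of its pair. Of the 12 PYHIN genes with at least 100 UMIs, Ifi213 included, 6 were at least 2-fold higher in IR than in Control and 7 at least 2-fold lower in IR+CBD than in IR, with medians of 0.74 and −1.22 on the log2 scale. The shares of all genes tested were 1.89% and 0.743%. Ifi213 had the largest ratio of IR over Control in the family. The next were Ifi206 at 2.98 (2.70 to 3.29), Ifi204 at 2.67 (2.42 to 2.95), Ifi208 at 2.64 (2.16 to 3.23), Ifi211 at 2.23 (2.03 to 2.45) and Ifi214 at 2.12 (1.92 to 2.34). Ifi207 was 1.29 in this comparison and joined the others in the drop to IR+CBD, at 0.475 (0.422 to 0.533). Mndal, Ifi203, Ifi209 and Ifi205 lay between 1.05 and 1.31. Aim2, which senses DNA in the cytoplasm, was the exception, at 0.827 (0.805 to 0.850) and 1.03 (1.01 to 1.07). Of the 18 promoters listed for relatives and members, 10 held GAAANNGAAA. Those of Ifi206, Ifi208, Ifi211, Ifi213 and Ifi214, genes all past 2-fold in IR, were among them. So were those of Ifi207, Ifi205, both of Mndal and 1 of the 2 of Ifi203. The other of Ifi203 and those of Aim2, Ifi209, Ifi202b, Ifi44, Ifi44l, Rtp2 and Rtp3 did not hold it. No promoter was listed for Ifi204, which was also past 2-fold.

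Near-identical relatives can share reads. Of the 31-base words in the last 500 bases of the GENCODE M21 transcripts of Ifi213, 26.9% also stood in transcripts of other genes, mostly Ifi208, and of Ifi27l2a 6.00%, all in Ifi27l2b. For Ifi27, Ifi44 and Rtp4 it was 0%. The split of reads between Ifi213 and Ifi208 is therefore uncertain.

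The other genes of the pathway fell into layers. Ligands were scarce: Ifna, Ifnb1, Ifnk and other type I interferon genes summed to 17 UMIs in Control, to 24 in IR and to 44 in IR+CBD, while Ifng had 241, 207 and 180. Of 14 receptor and signalling genes, 2 were at least 2-fold higher in IR, beside 1.89% of all genes tested. Among these 2 was the transcription factor Irf7 at 4.74 (4.45 to 5.06). Irf7 alone of the list was at least 2-fold lower in IR+CBD than in IR, at 0.247 (0.232 to 0.263), beside 0.743% of all genes tested. Irf9 was just below 2-fold for IR over Control, at 1.97 (1.89 to 2.06). The receptor chain Ifnar1 and the kinases Tyk2 and Jak1 had the highest IR+CBD over IR ratios of this list, all between 1.04 and 1.07. The median of the list was 0.010 for IR over Control.

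The 56 type I response genes tested do not include the 5 members. Of the 56, 29 were at least 2-fold higher in IR than in Control (median log2 ratio 1.02), beside 1.89% of all genes tested. In IR+CBD, 26 were at least 2-fold lower than in IR (median −0.85), beside 0.743% of all genes tested, and 56 of 56 had a level below that of IR. The lowest were Oas1g, an oligoadenylate synthetase, at 0.0915 (0.0699 to 0.118), Ifit3, which binds foreign RNA, at 0.173 (0.135 to 0.220), and Phf11d at 0.185 (0.145 to 0.233). The highest were Nmi at 0.789, Stat2 at 0.794 and Pnpt1 at 0.868. Of 23 genes that lean to interferon gamma, 6 were at least 2-fold higher in IR (median 0.37) and 5 at least 2-fold lower in IR+CBD (median −0.48), beside the same shares of all genes. Iigp1, Cxcl9 and Tgtp1 were the lowest of these, at 0.218, 0.396 and 0.423, and Socs1, Ciita and Nos2 the highest, at 0.977, 1.04 and 1.36. Of 6 feedback genes, Usp18 and Isg15 were 5.55 and 5.47 times as high in IR as in Control and at 0.250 and 0.288 of IR in IR+CBD, while Socs3 was at 0.411 of Control in IR and 1.10 of IR in IR+CBD. The other 3 feedback genes, Socs1, Ptpn6 and Ubash3b, lay between 0.977 and 1.06 for IR+CBD over IR. These lists, chosen with earlier results of these data known, are described, and no statement is made that they differ from other genes.

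**Figure D4:**
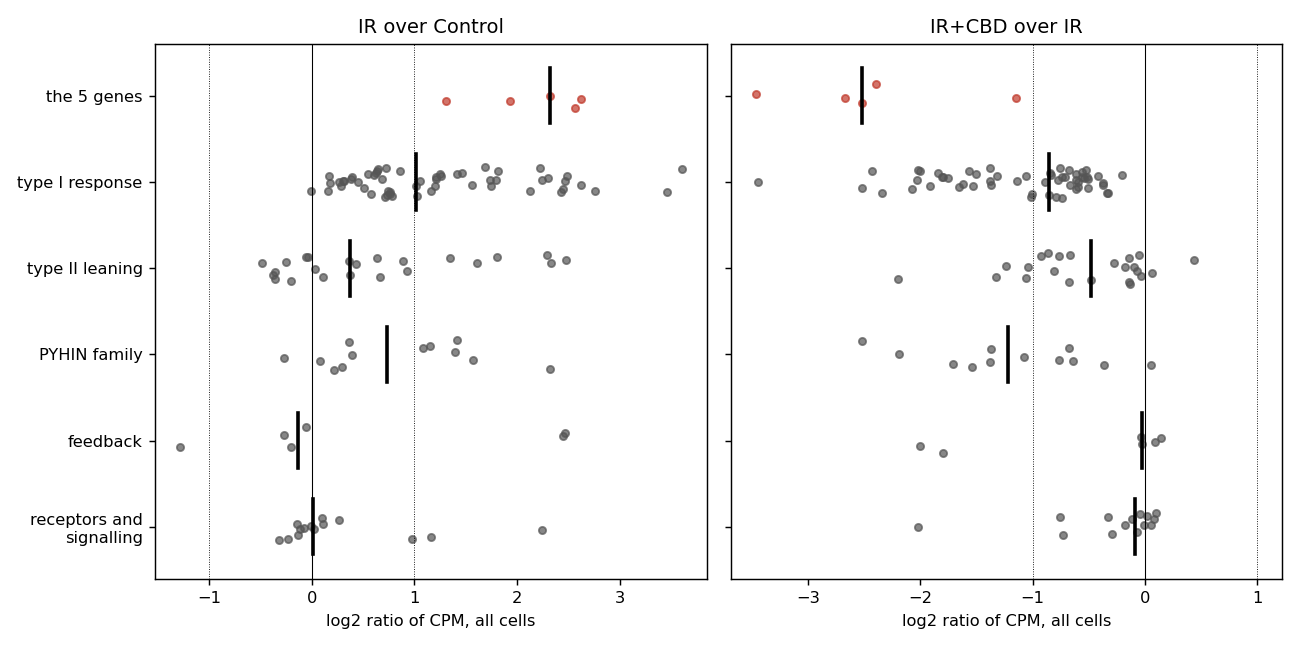
log2 ratio of CPM in all cells for each gene with at least 100 UMIs, by list (1 point a gene, black bars are medians, dotted lines mark 2-fold), for IR over Control (left) and IR+CBD over IR (right). The 5 genes (red) have medians of 2.32 and −2.52, and the type I response list, which does not hold them, 1.02 and −0.85.

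Across 18 points (6 gates in 3 libraries), the genes with the pattern most like each member were looked up among 12467 genes with at least 1000 UMIs, by Pearson's r of log2(CPM + 1). The points share libraries and cells, so r is a description. Ifi27l2a was most like Shisa5 (0.97), Trim34a (0.97) and Trim5 (0.96), and Rtp4 most like Oasl2, Ifit1 and Dhx58 (0.92 each). Ifi44 was most like Ogfr (0.92), Ifi35 (0.90) and Iigp1 (0.90), Ifi213 most like Lrp1b (0.92), BE692007 (0.91) and Ifi206 (0.91), and Ifi27 most like Parp12 (0.86), Parp10 (0.86) and Oas1a (0.82). Among the members themselves, Ifi27l2a went with Ifi213 (0.73) and Ifi27 with Rtp4 (0.74), whereas Ifi27l2a and Ifi27 were close to unrelated in this measure (0.055).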

How the data were processed

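For each library the authors deposited a matrix of raw, unnormalized UMI counts with the barcodes and genes it covers. The methods name Cell Ranger 4.0, the matrix headers 7.0.1 and the submitters' processing notes GRCm39. The annotation release is not given in the sources used here. From these counts, cells were kept that had at least 200 genes and at most 5% mitochondrial UMIs, the limits of the methods. Doublets were left in, and their removal with Scrublet (scanpy 1.11.5, the top 0.8% per 1000 cells) was an alternative. UMIs were summed per library and gate and given per 1000000 with exact 95% intervals, using Python 3.11.15 with scipy 1.17.1, pandas 2.3.3 and numpy 2.4.6. Genes with at least 100 UMIs were compared, and a gene was counted from 2-fold with a pseudocount of 0.5 UMI. Only the ratio intervals and the 2-fold call were run on simulated Poisson counts with known folds. Those counts held no gates, doublets or spread between mice. Each comparison sets 1 library against 1, so no test was run. Alternatives covered the filters, doublets, scaling, cell mix, thinning, folds and gate minimums. The members and gene lists were chosen with earlier results of these data known. Named relatives and list genes followed a rule: all relatives with at least 100 UMIs, the 3 highest and 3 lowest IR+CBD over IR ratios of each list, and the 3 genes most like each member. Silent relatives are named beside their counts. The values of 1 listed gene are not reported here. Promoters are from RefSeq, GRCm38.p6.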

Additional observations from a re-analysis of the deposited data

Results flagged for a closer look

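None of the differences below was tested, since each rests on 1 library a group. Ifi27l2a stood on opposite sides of Control in different gates: IR+CBD over Control was 1.42 in Cd79a+ cells and 0.649 in Cd34+Adgrl4+ cells, each with an interval clear of 1. Ifi27 did the same, at 1.21 in Mpo+ cells and 0.817 in Retnlg+ cells. Barcodes removed by the filters on genes and mitochondrial UMIs, which enter no comparison above, also held the genes. In IR, Ifi27l2a was at 469 CPM there, Ifi27 at 64.3, Ifi44 at 12.3, Ifi213 at 20.3 and Rtp4 at 22.8, against 22.0, 24.9, 1.98, 1.76 and 1.98 CPM in the removed barcodes of Control. Those of IR+CBD had 65.0, 32.3, 0.921, 1.61 and 4.38 CPM. Ifi27l2a of IR+CBD (57.6 to 73.0) was thus above Control (17.9 to 26.8) in removed barcodes, unlike in all kept cells.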

How the results depend on the processing

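The counts of members past 2-fold and their medians kept their direction for IR over Control and IR+CBD over IR under every alternative run. At 4-fold, 3 members were past the mark for IR over Control. Each cell weighted equally, or thinned to 2000 UMIs for IR+CBD over IR, left 4. The median for IR+CBD over Control, near 0, moved to −0.10 without predicted doublets and −0.0061 with median-of-ratios scaling, and reversed to 0.070 with the cell mix of Control and 0.021 with each cell weighted equally. The cause was not tested. That ratio was 1.15, 1.22 and 1.16 for Ifi27l2a with the cell mix of Control, equal weights and thinning, and 0.973 for Rtp4 with thinning. For Ifi44 it ran from 0.205 to 0.472 over 8 alternatives. Within gates, Ifi27 of IR over Control in Siglech+ cells reversed to 0.899 in cells of 1 gate and 0.725 without doublets. For IR+CBD over Control, Ifi27 in Cd34+Adgrl4+ cells reversed to 0.869 in cells of 1 gate. Ifi27l2a in Cd79a+ cells reversed to 0.739 in the cells with Vpreb1 or Igll1 and without Ighd, a split added after seeing the data. Of 292 gate ratios recomputed under alternatives, 211 stayed within the counting interval and 77 left it without reversing. Depth limits Ifi213 outside Cd79a+ cells and all of Siglech+ cells. No paired analysis was possible because each group has 1 library.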
